A study of Mus musculus with 10 samples.

Results

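The genes described here carry out fatty acid oxidation in the kidney or are targets of PPAR alpha, the nuclear receptor that drives their transcription. The set lists 31 mouse genes by name, chosen for function, though with earlier results of these data known. A probe set annotated to a single symbol was found for 29 of them, and all 29 lay above the level filter that left 11486 of 18193 genes for testing. Acsl1 was not analysed here, and Cyp4a10 was not used because its probe set is also annotated to Cyp4a31. Of the 29 genes, 20 encode mitochondrial proteins, 5 encode peroxisomal or microsomal proteins, and 4 (Ppara, Ppargc1a, Acot1 and Plin2) belong to neither.

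Renal cortex was taken from 10 FVB/N mice aged 20 weeks, 1 Affymetrix array per mouse. All had undergone partial ablation of a kidney and later uninephrectomy, and every mouse was then treated for 6 weeks. Treatment started when 6 weeks had passed since the ablation and 4 since the uninephrectomy. The losartan group (5 mice) received 500 mg/l of this blocker of the type 1 angiotensin II receptor, and the aliskiren group (5 mice) received 50 mg/kg of this renin inhibitor daily. No value gives the effect of surgery or of either drug alone, because untreated and sham-operated animals were not analysed here, and the sources used here do not say whether mice shared litters or cages. Values are log2 expression as deposited by the authors, with no coordinates or genome build attached. A difference of 1 on this scale is a doubling, and values of different probe sets are not compared with each other.

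Proximal tubule cells draw most of their energy from fatty acids. In textbook outline, fatty acids are activated to acyl-CoA, carried into mitochondria by the carnitine shuttle, and shortened by the beta-oxidation spiral, whose dehydrogenases pass electrons to the electron transfer flavoproteins. Peroxisomes shorten very long chains, and microsomal P450 enzymes of the CYP4 family hydroxylate fatty acids at the far end of the chain. PPAR alpha, helped by the coactivator encoded by Ppargc1a, raises transcription of genes in all of these steps, and falling expression of the pathway is a known feature of injured tubules.

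The mice differed widely in Havcr1, the gene of kidney injury molecule 1, which injured proximal tubule cells switch on. In losartan mice 1 to 5 its log2 expression was 7.23, 8.69, 10.76, 6.22 and 5.41, and in aliskiren mice 1 to 5 it was 9.37, 8.53, 6.08, 6.57 and 7.82. The groups overlapped throughout, and the highest and lowest mice, both on losartan, differed by 40.6-fold. Losartan mouse 3 also stood apart in markers of perirenal fat, the tissue around the kidney. Adipoq, the adipocyte hormone adiponectin, was at 12.96 in that mouse, 9.90 in aliskiren mouse 3, 7.35 in aliskiren mouse 2 and 3.17 to 3.96 in the other 7 mice. Ucp1, the defining gene of brown fat, followed the same order at 9.31, 8.87, 5.69 and 3.55 to 3.88. All 24 proximal tubule markers on the array lay above the level filter, with a mean between 11.96, in losartan mouse 3, and 12.52, in losartan mouse 1. Macrophage markers were highest in losartan mouse 3 as well, with a mean of 9.07 against 6.28 to 8.45 in the other mice, while 1 of 11 skeletal muscle and 4 of 9 liver markers were above the filter. Because fat oxidises fatty acids too, the main results along Havcr1 are given with and without losartan mouse 3. In bulk cortex, fewer tubule cells and less RNA per tubule cell cannot be told apart.

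PPAR alpha binds DNA as a partner of RXR at a direct repeat, a copy of AGGTCA followed by any base and a further AGGTCA. Promoter windows from RefSeq (build GRCm38.p6, 250 bases before to 50 after each start) were at hand for 25 of the 31 genes, as 26 windows. With at most 2 mismatches on either strand, 4 of 26 windows held this repeat (15.4%), against 3.86% of all 32851 windows. With at most 1 mismatch, 0 of 26 windows held it, against 0.554% of all. The single AGGTCA, which the repeat contains, was found in 6 of 26 windows (23.1%) against 16.3% of all, and TNAAGGTCA, the longer site bound by estrogen-related receptors, in 0 of 26 against 1.28%. The 4 near matches are shown because they are the places in these windows where the receptor's sequence comes closest to its ideal; capitals mark the match, the gene's own strand is printed 5′ to 3′, and coordinates are those of GRCm38.p6.
Plin2, chr4:86670252-86670304, minus strand: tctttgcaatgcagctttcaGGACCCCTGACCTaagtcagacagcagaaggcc
Echs1, chr7:140116472-140116524, minus strand: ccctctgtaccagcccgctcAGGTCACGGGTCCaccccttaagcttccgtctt
Etfa, chr9:55512288-55512340, minus strand: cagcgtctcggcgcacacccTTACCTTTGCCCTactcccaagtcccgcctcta
Slc25a20, chr9:108662122-108662165, plus strand: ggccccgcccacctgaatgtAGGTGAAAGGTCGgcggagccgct
In Plin2 and Etfa the match reads on the opposite strand. Counted from the start site, the matches spanned bases -225 to -213 in Plin2, -83 to -71 in Echs1, -77 to -65 in Etfa and 7 to 19 in Slc25a20. A match describes letters in a window and does not show binding, and known PPAR alpha sites often lie outside such windows.

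Neither the fatty acid oxidation genes nor any other tested gene passed the test between losartan and aliskiren. By limma's moderated test with Benjamini-Hochberg adjustment over all 11486 genes, 0 of 29 members differed between the drugs, as did 0% of all genes, and the lowest adjusted p among the members was 0.945. At an unadjusted p under 0.05 there was 1 member (3.45%), Hadha, against 4.72% of all genes. In no member did the 5 values of one drug lie wholly above or below those of the other, and the share of all genes without overlap was 0.418% with aliskiren higher and 0.496% with aliskiren lower. The data bound the difference for most members, though for a smaller share than of all genes. For 24 of 29 (82.8%), the 95% confidence interval of the difference excluded 1.5-fold changes either way, against 87.7% of all genes. The exceptions were Acaa1b, Acaa2, Cyp4a14, Cyp4b1 and Pdk4. Among these the interval ran from -1.70 to 1.35 for Cyp4a14 and from -0.69 to 1.05 for Pdk4, so larger differences remain possible there.

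**Figure D1:**
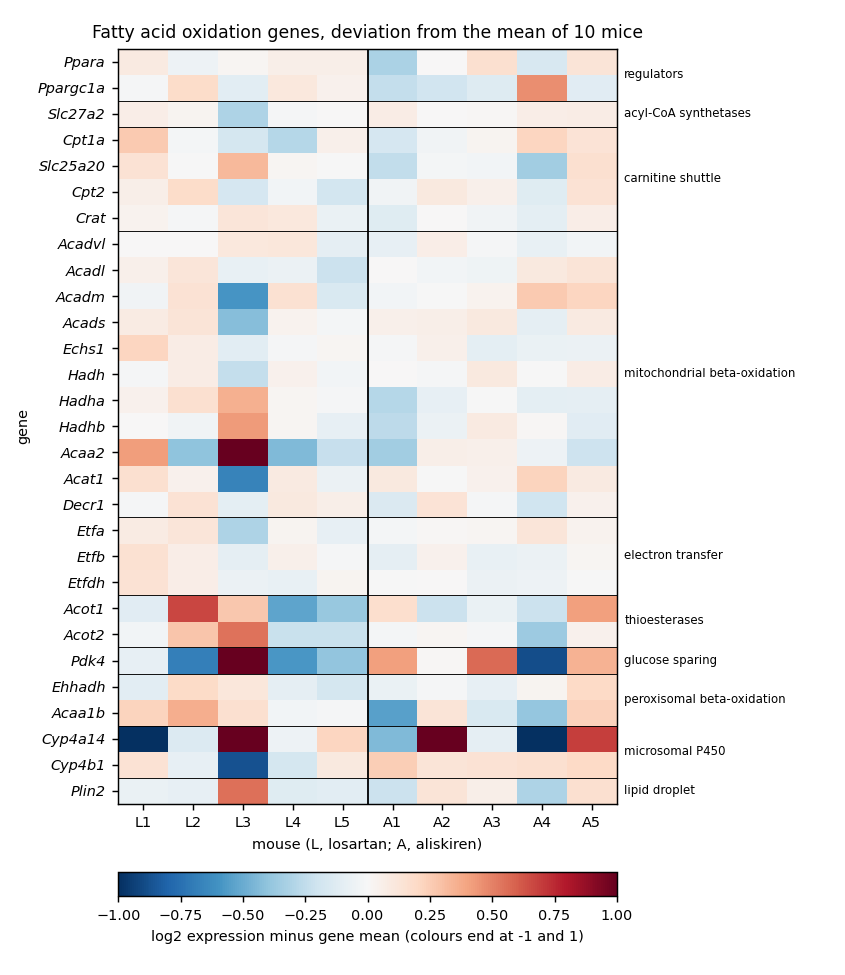
Log2 expression of the 29 genes (rows, grouped by role) in 10 mice (columns; L, losartan, A, aliskiren), each as its deviation from the gene's mean over 10 mice, with colours ending at -1 and 1. Most mitochondrial rows are pale, Cyp4a14 and Pdk4 show the strongest colours, and losartan mouse 3 (L3) holds the lowest value of 9 genes and the highest of 9.

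**Figure D2:**
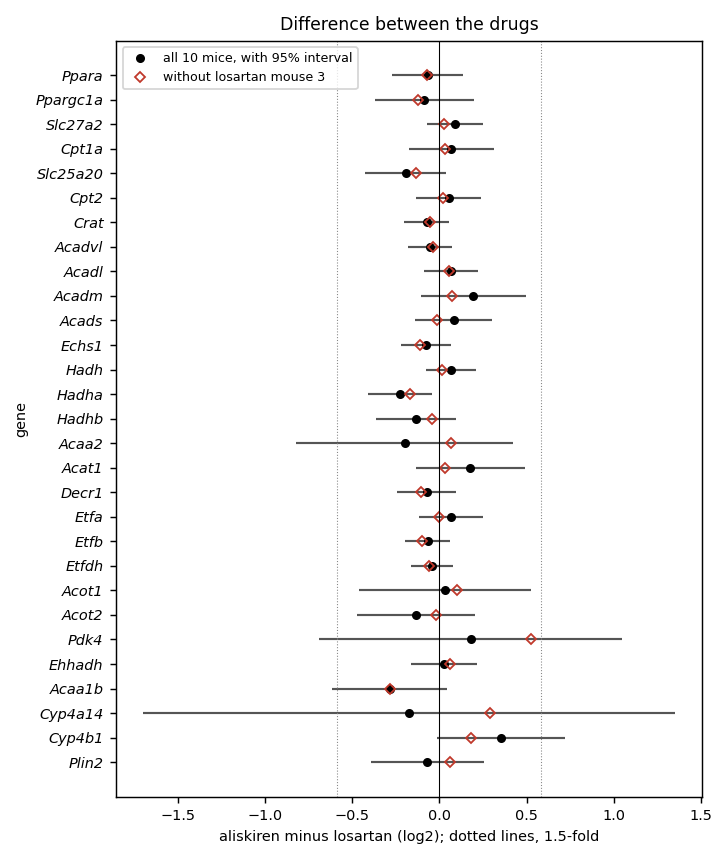
Difference between the drugs for each gene, as aliskiren minus losartan on the log2 scale, with limma's 95% confidence interval (line) over 5 mice per drug; open diamonds leave out losartan mouse 3 and dotted lines mark 1.5-fold. The interval crosses 0 for every gene but Hadha, at -0.41 to -0.04, and that of Cyp4a14 runs from -1.70 to 1.35.

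Among the regulators, Ppara itself varied about as much as the median gene, with a within-group SD of 0.147 against 0.144 for all genes. Its log2 expression was 9.83, 9.69, 9.76, 9.80 and 9.80 with losartan and 9.42, 9.75, 9.90, 9.58 and 9.87 with aliskiren. The groups overlapped, and the mean was 9.77 ± 0.05 with losartan and 9.71 ± 0.20 with aliskiren (SD, n = 5 each). Ppargc1a, the coactivator that couples PPAR alpha to mitochondrial biogenesis, had 10.49, 10.68, 10.39, 10.60 and 10.54 with losartan and 10.26, 10.31, 10.37, 10.96 and 10.38 with aliskiren. A single mouse, aliskiren mouse 4, was above all others, and the other 4 aliskiren mice were below every losartan mouse. The difference was -0.09 (SE 0.13) by the brightest probe set, while the gene's other 4 probe sets gave differences between 0.04 and 0.08, so its direction depends on the probe set.

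Activation of fatty acids and their entry into mitochondria showed small differences that the spread between mice covered. Slc27a2, the very long chain acyl-CoA synthetase and fatty acid transporter FATP2, was counted with the peroxisomal and microsomal members. Its log2 expression was 14.22 in losartan mouse 3 and 14.52 to 14.60 in the other 9 mice. Cpt1a, the malonyl-CoA-sensitive gate of the carnitine shuttle, was 11.74, 11.45, 11.30, 11.19 and 11.52 with losartan and 11.30, 11.44, 11.50, 11.69 and 11.61 with aliskiren. The Cpt1a groups overlapped almost completely, with a difference of 0.07 (SE 0.11), and 2 dimmer probe sets of the gene gave 0.30 and 0.32. Slc25a20, the carnitine-acylcarnitine translocase of the inner membrane, was 10.98, 10.83, 11.16, 10.85 and 10.82 with losartan and 10.58, 10.81, 10.80, 10.48 and 10.99 with aliskiren. In 4 of 5 aliskiren mice Slc25a20 was below every losartan mouse, and the fifth was second only to losartan mouse 3. The difference was -0.19 (SE 0.11). Cpt2 and Crat, the inner-membrane and the short-chain carnitine acyltransferases, differed by 0.05 (SE 0.08) and -0.07 (SE 0.06).

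Within-group SDs of the enzymes of the beta-oxidation spiral lay on both sides of the median of all genes, 0.14. They were below it for Acadvl, Acadl, Echs1, Hadh, Hadha and Decr1. Above it were Acadm (0.23), Acads (0.17), Hadhb (0.17), Acat1 (0.24) and Acaa2 (0.50). The very long chain dehydrogenase Acadvl had an SD of 0.07 and all 10 mice between 11.81 and 12.01, and the 3-hydroxyacyl dehydrogenase Hadh lay between 14.14 and 14.26 in all mice but losartan mouse 3, at 13.93. Acadm, the medium chain dehydrogenase often used as a readout of PPAR alpha activity, was 13.77, 13.95, 13.22, 13.96 and 13.66 with losartan and 13.78, 13.81, 13.85, 14.07 and 14.02 with aliskiren. Losartan mouse 3 was the lowest for Acadm, and the other 9 mice spanned 13.66 to 14.07. The drug difference of Acadm was 0.19 (SE 0.14) in 10 mice and 0.07 without losartan mouse 3. Acads, Echs1 and Acat1 were likewise lowest in that mouse, and Acat1, the mitochondrial acetoacetyl-CoA thiolase, read 12.62 there and 13.24 to 13.52 elsewhere.

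Hadha and Hadhb, the alpha and beta subunits of the mitochondrial trifunctional protein, are neighbours in opposite orientation. By the probe sets used they were, unlike Acadm, highest in losartan mouse 3. Hadha was 9.57, 9.68, 9.88, 9.54 and 9.51 with losartan and 9.24, 9.44, 9.52, 9.43 and 9.43 with aliskiren. Only aliskiren mouse 3, at 9.52, reached the range of the losartan mice. The difference of -0.23 (SE 0.08, 95% confidence interval -0.41 to -0.04) had an unadjusted p of 0.0197 and an adjusted p of 0.945 by limma, and was -0.17 without losartan mouse 3. Hadhb was 11.79, 11.75, 12.21, 11.81 and 11.71 with losartan and 11.53, 11.73, 11.88, 11.80 and 11.68 with aliskiren, a difference of -0.13 (SE 0.10). By these probe sets both subunits were highest in losartan mouse 3. In the aliskiren group both were highest in aliskiren mouse 3 and lowest in aliskiren mouse 1. A dimmer probe set of Hadhb, with a mean of 10.54, gave a difference of 0.10 and was highest in aliskiren mouse 5 (10.80). The dimmest, with a mean of 6.69, gave -0.08 and was highest in losartan mouse 5 (6.91). The direction and the order of mice for Hadhb thus depend on the probe set. The 250 bases upstream of Hadhb are printed because the pair shares them; capitals mark the 228 bases that also lie in the 250 bases upstream of Hadha, read on the Hadhb strand (RefSeq, GRCm38.p6). None of the 3 motifs searched has a match in the windows of these genes.
Hadhb, chr5:30155003-30155252, plus strand: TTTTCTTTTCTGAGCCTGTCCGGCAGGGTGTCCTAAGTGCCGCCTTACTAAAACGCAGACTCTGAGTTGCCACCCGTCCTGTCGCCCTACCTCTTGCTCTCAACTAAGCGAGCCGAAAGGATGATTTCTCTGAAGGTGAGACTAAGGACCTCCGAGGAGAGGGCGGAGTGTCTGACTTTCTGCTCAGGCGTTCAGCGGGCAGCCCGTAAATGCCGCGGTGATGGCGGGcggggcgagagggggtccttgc

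Acaa2, the thiolase of the last step of the spiral, was the most variable enzyme of mitochondrial beta-oxidation, with a within-group SD of 0.50 that exceeds 94.5% of all genes. Its values were 9.94, 9.13, 10.68, 9.09 and 9.29 with losartan and 9.18, 9.59, 9.58, 9.47 and 9.32 with aliskiren. Losartan mice 3 and 1 were high and the remaining 8 mice lay between 9.09 and 9.59. The drug difference of Acaa2 was -0.20 (SE 0.28), and 0.06 without losartan mouse 3. The flavoproteins that take the electrons, Etfa, Etfb and Etfdh, differed in how steady they were. Etfdh had the lowest within-group SD of all 29, 0.07, with mice between 11.62 and 11.84, and Etfb had 0.08, whereas Etfa had 0.13. Their drug differences were 0.07, -0.07 and -0.04 (SE 0.08, 0.06 and 0.05).

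Pdk4 phosphorylates and switches off pyruvate dehydrogenase, which spares glucose when fat is burnt, and is a classical PPAR alpha target. It was 8.23, 7.64, 9.61, 7.73 and 7.92 with losartan and 8.73, 8.33, 8.89, 7.43 and 8.66 with aliskiren. Losartan mouse 3 was highest and aliskiren mouse 4 lowest, a 4.54-fold range. The within-group SD of 0.70 exceeds that of 97.6% of all genes, and the drug difference was 0.18 (SE 0.39), or 0.53 without losartan mouse 3. Plin2, which coats lipid droplets and rises with fatty acid load, was 11.86 in losartan mouse 3, 11.19 to 11.24 in the other losartan mice and 11.00 to 11.47 with aliskiren.

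Neither peroxisomal member passed the test between the drugs. Ehhadh, the bifunctional enzyme of peroxisomal beta-oxidation, was 12.95, 13.24, 13.17, 12.96 and 12.88 with losartan and 12.98, 13.04, 12.97, 13.08 and 13.25 with aliskiren, a difference of 0.03 (SE 0.09). The ranges overlapped almost wholly. Acaa1b, a peroxisomal thiolase, was 13.61, 13.76, 13.55, 13.36 and 13.38 with losartan and 12.85, 13.52, 13.24, 13.00 and 13.62 with aliskiren. Aliskiren mice 1, 3 and 4 lay below all losartan mice, and the difference was -0.29 (SE 0.15), unadjusted p 0.0841 by limma.

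The microsomal P450 genes contrasted in their spread. Cyp4a14, a lauric acid hydroxylase strongly induced by PPAR alpha agonists, was 9.82, 11.23, 13.32, 11.31 and 11.58 with losartan and 10.93, 12.67, 11.28, 9.45 and 12.06 with aliskiren. It spanned 14.6-fold over the 10 mice, from aliskiren mouse 4 to losartan mouse 3, and both groups covered much of that span. Its mean was 11.45 ± 1.25 with losartan and 11.28 ± 1.23 with aliskiren (SD, n = 5 each), and its within-group SD of 1.24 exceeds that of 99.7% of all genes. Cyp4b1, an abundant renal fatty acid hydroxylase, was 14.40, 14.17, 13.38, 14.07 and 14.35 with losartan and 14.49, 14.38, 14.39, 14.41 and 14.45 with aliskiren. The 5 aliskiren mice lay within a narrow band, losartan mouse 3 was far below, and the difference was 0.35 (SE 0.17, unadjusted p 0.0593 by limma), or 0.18 without that mouse. These values lie near the top of the array's scale, which reached 15.06.

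Along Havcr1, the slopes of the 29 members were split in sign much as those of all genes were. The slope of each gene, its change in log2 expression per log2 unit of Havcr1 with drug in the fit, was positive for 16 of 29 members with a median of 0.0070, against 56.6% of all genes and a median of 0.0089. By limma with adjustment over 11485 genes, 1 member rose along Havcr1, Acot2, against 11% of all genes, and 0 members fell, against 2.91% of all genes. At an unadjusted p under 0.05 there were 5 members (17.2%) against 32.1% of all genes: Acot1, Acot2 and Pdk4 with positive slopes, and Acat1 and Cyp4b1 with negative ones. Over the whole range of Havcr1, the 95% confidence interval of the change lay within 1.5-fold for 17 of 29 members (58.6%) and for 60.1% of all genes. In the same fit, 16 of 16 tubular injury markers and 11 of 13 macrophage markers rose, and 1 macrophage marker fell. Proximal tubule markers had negative slopes in 23 of 24 cases with a median of -0.047, and none passed the test. In the fit without losartan mouse 3, 18 of the 24 were negative with a median of -0.022. In that fit 0 of 16 injury markers and 2 of 13 macrophage markers passed, and all 16 injury slopes stayed positive.

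With the mean of the tubular injury markers in place of Havcr1, 5 of 29 members passed. Acot2 and Pdk4 rose, as did 16.9% of all genes, and Acadm, Acat1 and Cyp4b1 fell, as did 8.56% of all genes. Their slopes per log2 unit of that mean were 0.26 (SE 0.052) for Acot2, 0.57 (SE 0.17) for Pdk4, -0.19 (SE 0.061) for Acadm, -0.22 (SE 0.058) for Acat1 and -0.25 (SE 0.072) for Cyp4b1. The injury mean was 10.05 in losartan mouse 3 and 8.97 or less in the other mice.

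**Figure D3:**
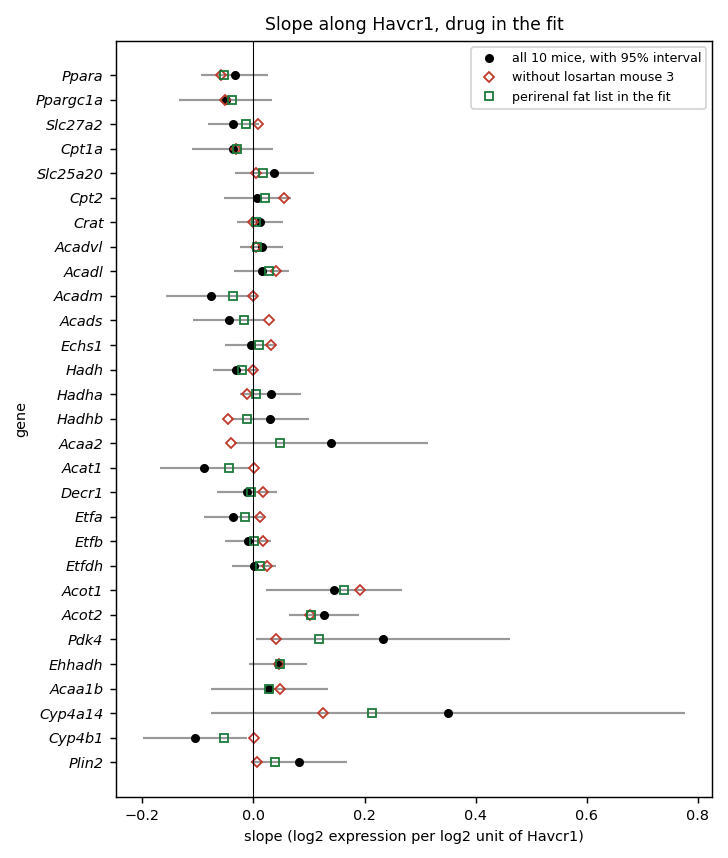
Slope of each gene along Havcr1, in log2 expression per log2 unit of Havcr1, from the fit with drug on 10 mice (black, with 95% confidence interval), without losartan mouse 3 (red diamonds) and with the perirenal fat markers in the fit (green squares). The slopes of Acot2, at 0.13 in 10 mice, and Acot1, at 0.15, stay positive in all 3 fits, with Acot2 past the threshold in the fit on 10 mice alone and Acot1 in none, while those of Pdk4 (0.23 to 0.041), Acaa2 (0.14 to -0.041) and Cyp4b1 (-0.10 to 0.0020) shrink or turn without losartan mouse 3.

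Acot2 and Acot1 encode thioesterases, mitochondrial and cytosolic, that split acyl-CoA into free fatty acid and CoA. Acot2 was 10.22, 10.53, 10.80, 10.03 and 10.03 in losartan mice 1 to 5 and 10.23, 10.27, 10.24, 9.89 and 10.30 in aliskiren mice 1 to 5. The mice with most Havcr1 among those on losartan, 3 and 2, were also those with most Acot2, whereas aliskiren mouse 1, with the second highest Havcr1 of all, had an ordinary 10.23. The slope was 0.13 (SE 0.028, 95% confidence interval 0.064 to 0.19, adjusted p 0.0186), which over the range of Havcr1 comes to 0.68 on the log2 scale. Without losartan mouse 3 the slope was 0.10 (SE 0.038, adjusted p 0.305), and without losartan mouse 5 it was 0.13 with an adjusted p of 0.0516, so the call ends in either case. Adding the perirenal fat markers to the fit gave 0.10 (adjusted p 0.0619), which left 0 members that rose or fell, against 5.1% and 0.697% of all genes. Adding the proximal tubule markers instead gave 0.14 (adjusted p 0.212), and 0 members rose, against 0.0609% of all genes. Over all alternatives run, the adjusted p of Acot2 lay between 0.0038 and 0.537, with a positive slope in each. The second, dimmer probe set of Acot2 had a slope of 0.16 in 10 mice and 0.17 without losartan mouse 3.

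Acot1 lies next to Acot2 in the genome and was 9.52, 10.31, 9.91, 9.11 and 9.26 with losartan and 9.80, 9.42, 9.57, 9.42 and 10.05 with aliskiren. Losartan mouse 2 was highest and losartan mouse 4 lowest. Its slope was 0.15 (SE 0.055, adjusted p 0.103) and 0.19 (SE 0.076, adjusted p 0.327) without losartan mouse 3, so neither passed the test. The genes are close paralogs, and whether their probe sets share signal was not tested. Over the 10 mice, Acot2 correlated with Havcr1 at r = 0.816 (permutation p 0.00324, adjusted 0.0386 over 11485 relations) and rho = 0.685 (permutation p 0.0341, adjusted 0.213). For Acot1, r was 0.654 (permutation p 0.0401, adjusted 0.148) and rho 0.685 (permutation p 0.0336, adjusted 0.213). Without losartan mice 3 and 5, the farthest from the median of Havcr1, r was 0.606 for both genes. The 250 bases upstream of Acot2, the only member called along Havcr1, are printed as a reference; they hold none of the 3 motifs searched, so none is in capitals (RefSeq, GRCm38.p6).
Acot2, chr12:83987611-83987860, plus strand: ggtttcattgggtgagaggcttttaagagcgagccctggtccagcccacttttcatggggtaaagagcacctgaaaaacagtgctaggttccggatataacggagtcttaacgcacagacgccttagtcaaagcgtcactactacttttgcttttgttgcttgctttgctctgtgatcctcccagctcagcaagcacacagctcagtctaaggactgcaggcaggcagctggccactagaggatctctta

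**Figure D4:**
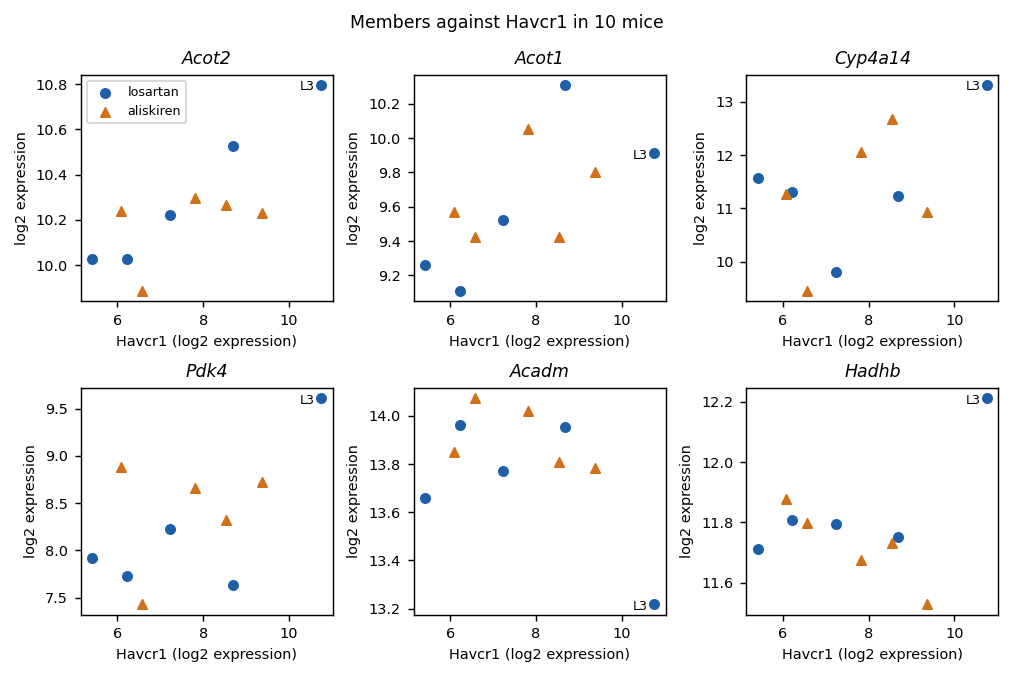
Log2 expression of 6 members against log2 expression of Havcr1, 1 point per mouse (circles, losartan; triangles, aliskiren; L3, losartan mouse 3). Acot2 and Acot1 climb over the 10 mice with r of 0.816 and 0.654, while L3 alone sets the high end of Pdk4, Cyp4a14 and Hadhb and the low end of Acadm.

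Losartan mouse 3 set the sign of many slopes. Leaving it out changed the sign of 12 of 29 member slopes, the count of genes that rose dropped from 1258 to 22 of 11485 (0.192%), and 0 members passed the test. The share of all genes whose slope changed sign was not counted, so the 12 of 29 may not be particular to the members. Over all genes, positive slopes numbered 6502 of 11485 in 10 mice and 7368 without that mouse. Hadhb correlated with Havcr1 at r = 0.285 over 10 mice and at -0.644 without losartan mouse 3. Acadm, whose slope was -0.076 (SE 0.037, adjusted p 0.186) in 10 mice, had one of -4.16e-05 (SE 0.038) in the other 9. Acat1 went from -0.088 (SE 0.036) to 0.00087 (SE 0.028), and Cyp4b1 from -0.10 (SE 0.042) to 0.0020 (SE 0.031). Across the 29 members that mouse held the lowest value in 9 (31%) and the highest in 9 (31%), and over all genes tested it held the lowest in 24.9% and the highest in 29.2%. The lowest were Acadm, Acads, Acat1, Cyp4b1, Echs1, Etfa, Etfb, Hadh and Slc27a2, and the highest Acaa2, Acot2, Crat, Cyp4a14, Hadha, Hadhb, Pdk4, Plin2 and Slc25a20. Genes of the same spiral thus lay at opposite ends in 1 mouse, and the members' shares at both ends were near those of all genes.

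The mean of the 13 perirenal fat markers on the array, 7 of them above the level filter, was 9.86 in losartan mouse 3, 8.03 in aliskiren mouse 3, 6.40 in aliskiren mouse 2 and 5.37 to 5.55 in the other mice. In a fit with drug, Havcr1 and this mean, 0 of 29 members passed the test for the fat markers, against 0.81% of all genes in the positive and 0.148% in the negative direction. The lowest adjusted p was that of Hadhb, 0.0861, with a coefficient of 0.10 (SE 0.023) per log2 unit of the fat marker mean. At an unadjusted p under 0.05 there were 9 members (31%) against 11.7% of all genes. Coefficients were positive for Acaa2 (0.23), Hadha (0.065), Hadhb (0.10), Pdk4 (0.29) and Plin2 (0.11), and negative for Acadm (-0.098), Acat1 (-0.11), Cyp4b1 (-0.13) and Slc27a2 (-0.056). Losartan mouse 3 was at the extreme of all 9. The fat markers, the macrophage markers and Havcr1 were all highest in that mouse, and their separate parts in these values were not tested.

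**Figure D5:**
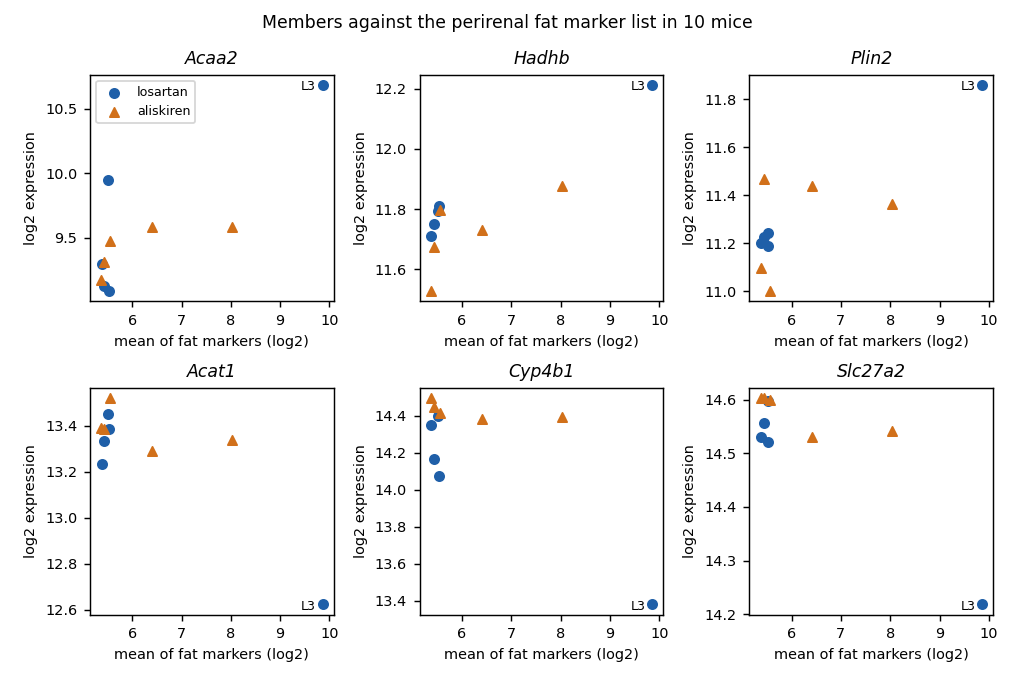
Log2 expression of 6 members against the mean log2 expression of the perirenal fat markers, 1 point per mouse (circles, losartan; triangles, aliskiren; L3, losartan mouse 3). L3, at 9.86 on the x axis, is highest for Acaa2, Hadhb and Plin2 and lowest for Acat1, Cyp4b1 and Slc27a2. Aliskiren mouse 3, at 8.03, is within the range of the mice other than L3 except for Hadhb, where it is second to L3.

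Mitochondrial members varied less between mice than peroxisomal and microsomal ones in these samples, a description with no test. The median within-group SD was 0.13 for the 20 mitochondrial genes and 0.26 for the 5 others, against 0.14 for all genes. The mean of the mitochondrial members was 11.61, 11.55, 11.59, 11.48 and 11.44 in losartan mice 1 to 5 and 11.46, 11.54, 11.56, 11.45 and 11.58 in aliskiren mice 1 to 5. All mice thus lay between 11.44 and 11.61, and losartan mouse 3 was inside that range although 14 of the 18 members with their lowest or highest value there were mitochondrial. The mean of the peroxisomal and microsomal members was 13.07, 13.39, 13.53, 13.25 and 13.34 with losartan and 13.17, 13.63, 13.29, 12.91 and 13.60 with aliskiren. Its SD was 0.17 with losartan and 0.30 with aliskiren (n = 5 each), and without Cyp4a14 0.14 and 0.10, the mean then lying between 13.58, in losartan mouse 3, and 13.98, in aliskiren mouse 5.

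Between the drugs, 9 of 20 mitochondrial members were higher with aliskiren with a median of -0.049, and 3 of 5 peroxisomal and microsomal members with a median of 0.026. The median over all genes was -0.0097. Along Havcr1, 11 of 20 mitochondrial slopes were positive with a median of 0.0041, and 3 of 5 of the others with a median of 0.029. Without losartan mouse 3 these were 13 of 20 with a median of 0.0087 and 5 of 5 with a median of 0.046, against 7368 of 11485 and 0.015 for all genes. No member of either compartment other than Acot2 passed the test, and the slopes of 0 genes and 0 members differed between the drugs by limma's interaction term. At an unadjusted p under 0.05 the interaction was present for Cyp4b1, Hadha and Hadhb (3 of 29) and for 7.19% of all genes.

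Most other mitochondrial and peroxisomal oxidation genes had negative slopes along Havcr1, as did 43.4% of all genes, and 2.91% of all genes fell. Of 25 other mitochondrial oxidation genes, 20 had negative slopes, with a median of -0.059, and 3 fell: Acsm5 at -0.11 (SE 0.025, adjusted p 0.0184) and Acsm1 at -0.28 (SE 0.080, adjusted p 0.0459), both medium chain acyl-CoA synthetases, and Sirt3, the mitochondrial deacetylase that activates oxidation enzymes, at -0.10 (SE 0.029, adjusted p 0.0432). Of 27 other peroxisomal genes, 23 had negative slopes, with a median of -0.044, and 1 fell, Pecr, a peroxisomal enoyl-CoA reductase, at -0.11 (SE 0.030, adjusted p 0.0382). In the fit without losartan mouse 3, 17 of the 25 and 14 of the 27 were negative, against 4117 of 11485 genes, and the slopes of Acsm5, Acsm1, Sirt3 and Pecr were -0.060, -0.086, -0.034 and -0.042. Acsm1 was 10.94, 11.29, 9.32, 11.73 and 11.07 with losartan and 10.85, 10.95, 11.28, 11.35 and 11.38 with aliskiren, so that losartan mouse 3 was low and no other mouse was below 10.85. Among 21 other regulators, 14 slopes were negative and 2 genes fell, the estrogen-related receptors Esrrb at -0.15 (SE 0.037) and Esrra at -0.076 (SE 0.022). Without losartan mouse 3 their slopes were -0.11 and -0.065, with adjusted p of 0.404 and 0.424, and 12 of the 21 were negative. Of 17 other PPAR alpha targets, 10 had positive slopes, with a median of 0.017, and 2 fell: Creb3l3, a fasting-responsive transcription factor, at -0.096 (SE 0.017, adjusted p 0.0074) and Pdk2, a further pyruvate dehydrogenase kinase, at -0.093 (SE 0.026, adjusted p 0.044). Their slopes without losartan mouse 3 were -0.079 and -0.034, with adjusted p of 0.176 and 0.619. The mean of Creb3l3 over the 10 mice, 6.00, lay near the level filter of 5.53.

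Genes of fatty acid uptake, storage and synthesis had mostly positive slopes, as did 56.6% of all genes, and 11% of all genes rose. Of 13 uptake and activation genes, 11 were positive and 3 long chain acyl-CoA synthetases rose: Acsl5 at 0.11 (SE 0.027), Acsl3 at 0.12 (SE 0.029) and Acsl4 at 0.13 (SE 0.036), with adjusted p of 0.022, 0.0252 and 0.0405. Of 15 lipid droplet genes 11 were positive and Plin3, a droplet coat protein, rose at 0.16 (SE 0.036). Of 15 fatty acid synthesis genes 13 were positive and Srebf1, their master transcription factor, rose at 0.24 (SE 0.063), with 10.17 in losartan mouse 3 and 8.19 to 8.63 in the other mice. Of 10 other microsomal genes 5 were positive and the P450 genes Cyp4v3 and Cyp4f16 rose at 0.21 (SE 0.038) and 0.13 (SE 0.038). Leaving out losartan mouse 3, the slopes of Acsl5, Acsl3 and Acsl4 were 0.078, 0.091 and 0.053, that of Plin3 was 0.089 and that of Srebf1 0.058. Those of Cyp4v3 and Cyp4f16 were then 0.15 and 0.060. In the same 9 mice, 7 of 13 uptake, 4 of 15 lipid droplet, 7 of 15 synthesis and 8 of 10 microsomal slopes were positive, against 7368 of 11485 genes. None of the genes in these 8 pathway lists passed the test without losartan mouse 3, where the median slopes were -0.014 for mitochondrial, -0.0034 for peroxisomal, 0.013 for uptake, -0.016 for lipid droplet and -0.0051 for synthesis genes. Lipid droplet and synthesis genes are abundant in fat. The slopes of 7 of 7 perirenal fat markers were positive in 10 mice and all turned negative without losartan mouse 3. The fat markers, the macrophage markers and Havcr1 were all highest in that mouse, and their separate parts in these slopes were not tested.

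Between the drugs, no gene of these lists passed the test. The smallest unadjusted p belonged to Mgll, monoacylglycerol lipase, at -0.22 (SE 0.064, p 0.0062 by limma), and to Cd36, the fatty acid translocase, at 0.28 (SE 0.087, p 0.0094 by limma). Cd36 was 12.20, 12.29, 12.26, 12.47 and 12.27 with losartan and 12.87, 12.44, 12.52, 12.48 and 12.58 with aliskiren. Only aliskiren mouse 2 was below the highest losartan mouse, and leaving out losartan mouse 3 changed the difference of Cd36 to 0.27. Mgll was 10.73 to 10.88 with losartan and 10.41 to 10.68 with aliskiren, and its difference was -0.22 without losartan mouse 3 too. Its values did not overlap between the drugs, as was so for 0.496% of all genes with aliskiren lower. Both genes were picked from all the lists for their small p, and 4.72% of all genes had an unadjusted p under 0.05 by limma.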

How the data were processed

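Renal cortex RNA of 10 mice was profiled with 1 array each. The authors deposited log2 values, 1 for each probe set. Per the submitters' processing notes these come from Affymetrix Expression Console 1.1 and RMA, which removes overall differences between arrays. Of 45037 non-control probe sets, those with 1 symbol in the platform annotation (34945) were used, and each gene took its probe set of highest mean. Genes whose mean reached 5.53, the median of non-control probe sets, were tested (11486). Fits used limma 3.58.1 in R 4.3.3, two-sided, with Benjamini-Hochberg adjustment at 0.05: drug alone, and drug with Havcr1, whose own gene was left out. SE and 95% confidence intervals are limma's. Correlations used 100000 permutations. Fits were tested on simulated data. The named genes are all members, and per pathway list up to 3 genes of smallest p along Havcr1 and 2 between the drugs, from which the text takes the called and the most different ones. The members and lists were chosen with earlier results of these data known, and several list genes are shared between lists. Nothing says that mice were littermates or housed apart, so p-values measure the spread between these samples. Arrays have no read depth, and 5 mice per group limit the precision. Alternatives covered level filter, probe set, scaling, variance model, replicate block, covariates, injury readout and leaving out mice. The fat marker coefficient and the fits without losartan mouse 3 and aliskiren mice 2 and 3 were added after the data were seen. Protein identity of paralogous members was not analysed here.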

Additional observations from a re-analysis of the deposited data

Results flagged for a closer look

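Within a drug group of 5 mice, 8 of 62 checks, on 29 genes and 2 compartment means in each of the 2 groups, had a mouse whose gap to the nearest other was above Dixon's 95% critical value, where chance gives about 1 in 20. The checks share the same 10 mice and are not independent. The same check was not run over all genes, so the count cannot be read as a trait of these genes. In 5 of the 8, the mouse was losartan mouse 3, which held the lowest value in 24.9% and the highest in 29.2% of all genes tested. That mouse was low for Slc27a2 (14.22, nearest other losartan mouse 14.52), Acads (10.35, nearest 10.75) and Acat1 (12.62, nearest 13.24), and high for Hadhb (12.21, nearest 11.81) and Plin2 (11.86, nearest 11.24). Its fat markers, macrophage markers and Havcr1 were also the highest of all mice, and their parts in these values were not tested. The remaining 3 were in aliskiren mouse 4, which was high for Ppargc1a (10.96, nearest 10.38) and low for Acads (10.68, nearest 10.83) and Acot2 (9.89, nearest 10.23). The fat markers of aliskiren mouse 4 were not raised, at 3.59 for Adipoq.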

How the results depend on the processing

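The comparison of the drugs gave 0 genes and 0 members past the threshold under every alternative run, and the limit there is the spread between 5 mice per group. The number of genes called along Havcr1 rested on losartan mouse 3. Leaving out each mouse in turn, the genes that rose numbered 22 to 1343, those that fell 0 to 393, and the members that rose 0 to 2, with the lowest counts without losartan mouse 3. Without losartan mouse 4 they were 814 and 145 and without aliskiren mouse 1 792 and 172, and 196 fell without losartan mouse 5. The second member, without aliskiren mouse 3, was Pdk4 (slope 0.31, adjusted p 0.0484 by limma). Counts that moved by over 1.5 times were 566 falling genes with no level filter, 518 rising and 104 falling with the filter at the 75th percentile, 579 falling with quantile normalization and 597 falling with Lcn2. With the fat markers as covariate 586 rose and 80 fell, with 0 members, and with the proximal tubule markers as covariate 7 rose and 0 fell, with 0 members. Without losartan mouse 3 and aliskiren mouse 1, 1 gene rose and 0 fell, with 0 members and a median slope of the peroxisomal and microsomal members of 0.081. Without losartan mouse 3 and aliskiren mice 2 and 3, an alternative chosen after the data were seen, 21 rose and 0 fell, with 0 members. With the mean of the injury markers in place of Havcr1, 1933 rose and 982 fell, with 2 members rising (Acot2, Pdk4) and 3 falling (Acadm, Acat1, Cyp4b1), 17.2% of members against 25.4% of all genes. Same-numbered mice had r of -0.23 to 0.42, which shows no pairing by number but, with 5 such values, cannot exclude one. With the numbers as a replicate block, 393 genes rose and 42 fell, with 0 members rising and 1 falling. The falling member was Cyp4b1 (adjusted p 0.0478 by limma), and Acot2 was no longer called (adjusted p 0.0907 by limma). Between the drugs 0 genes passed in that fit. With at most 1 mismatch, 0 promoter windows held the direct repeat. Signs of members below the threshold also moved, and the cause was not tested. With the mean of all probe sets, the drug differences of Ppargc1a (0.032) and Etfdh (0.0060) changed sign. With losartan mouse 3 and aliskiren mouse 1 left out, the drug differences of Acads (-0.019), Hadhb (0.0047), Acaa2 (0.13), Cyp4a14 (0.38) and Plin2 (0.10) changed sign. With losartan mouse 3 and aliskiren mice 2 and 3 left out, the drug differences of Cpt2 (-0.012) and Acads (-0.039) changed sign. With the mean of all probe sets, the slopes of Crat (-0.0088) and Acadl (-0.029) changed sign. With equal array medians, the slope of Etfdh (-5.56e-05) changed sign. With quantile normalization, the slope of Echs1 (3.78e-04) changed sign. With the replicate block, the slopes of Cpt2 (-0.014) and Etfdh (-0.011) changed sign. With the fat markers as covariate, the slopes of Echs1 (0.011), Hadhb (-0.011) and Etfb (0.0011) changed sign. With losartan mouse 3 and aliskiren mouse 1 left out, the slopes of Slc27a2 (0.0058), Cpt1a (0.0027), Acadm (0.027), Acads (0.035), Echs1 (0.038), Hadh (0.0053), Hadhb (-0.022), Acaa2 (-0.0014), Acat1 (8.75e-05), Decr1 (0.047), Etfa (0.029), Etfb (0.036) and Pdk4 (-0.014) changed sign. With losartan mouse 3 and aliskiren mice 2 and 3 left out, the slopes of Slc27a2 (0.0081), Crat (-0.0035), Acads (0.046), Echs1 (0.027), Hadh (0.013), Hadhb (-0.035), Acaa2 (-0.036), Decr1 (0.017), Etfa (0.015) and Etfb (0.010) changed sign. With the proximal tubule markers as covariate, the slopes of Cpt1a (0.024), Acads (0.0090), Echs1 (0.042), Hadhb (-0.0070), Decr1 (0.015) and Etfb (0.022) changed sign. With Lcn2 in place of Havcr1, the slope of Etfdh (-7.93e-04) changed sign. With the injury markers in place of Havcr1, the slopes of Cpt2 (-0.016) and Etfdh (-0.0089) changed sign. Leaving out each mouse in turn, drug differences that changed sign ranged as Ppara -0.12 to 0.0022, Acads -0.015 to 0.12, Acaa2 -0.33 to 0.064, Etfa -0.0030 to 0.11, Ehhadh -0.020 to 0.076, Cyp4a14 -0.58 to 0.29, Acot1 -0.10 to 0.20 and Plin2 -0.12 to 0.059. Leaving out each mouse in turn, slopes that changed sign ranged as Slc27a2 -0.045 to 0.0085, Cpt2 -0.014 to 0.054, Crat -0.0012 to 0.022, Acadl -0.0062 to 0.041, Acads -0.056 to 0.028, Echs1 -0.011 to 0.032, Hadha -0.012 to 0.053, Hadhb -0.046 to 0.054, Acaa2 -0.041 to 0.19, Acat1 -0.11 to 8.70e-04, Decr1 -0.022 to 0.017, Etfa -0.056 to 0.012, Etfb -0.021 to 0.017, Etfdh -0.0062 to 0.025 and Cyp4b1 -0.13 to 0.0020. Of the values of single members under an alternative, 22 drug differences and 62 slopes changed sign, and 558 and 621 kept their direction and their side of the threshold.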
